A study of Mus musculus with 4 samples.

Results

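Periportal sinusoidal endothelial nuclei were 894 of the 25611 mouse liver nuclei that passed the quality filter, and 894 of the 4792 nuclei that passed a sinusoidal endothelial gate. A nucleus entered the sinusoidal gate with at least 500 detected genes, at most 5% mitochondrially encoded transcripts, and at least 4 unique molecular identifiers (UMIs, single counted transcripts) summed over Stab2, Ptprb, Bmp6, Adgrl4 and Flt4. At least 1 of these UMIs had to come from Stab2, and none could come from the Kupffer, stellate, T or B cell genes Cd5l, Clec4f, Reln, Skap1 and Pax5. It was called periportal with at least 2 UMIs summed over Efnb2, Ntn4, Msr1, Adgrg6, Ltbp4 and Dll4 and 0 UMIs of the pericentral genes Wnt2, Kit, Rspo3, Thbd and Wnt9b. Brca1-WT replicates 1 and 2 gave 272 and 324 of these nuclei, and replicates 1 and 2 labelled Brca1-KO gave 225 and 73. No member barcode was shared between libraries. Position in the lobule was not measured, so "periportal" here means the gate.

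Nuclei had been isolated from non-tumor liver of male mice aged 12 months that had all received the liver carcinogen diethylnitrosamine (DEN) at 25 mg/kg when 14 days old, and transcripts were counted with a 10x Genomics 3′ kit. There were 2 groups, Brca1-WT and Brca1-KO, with 2 libraries labelled as biological replicates in each. The series is about how Brca1, known for its part in repairing broken DNA, may promote liver cancer by way of Bhmt, which encodes betaine-homocysteine methyltransferase. No untreated mice entered the comparison, and no source used here gives the Cre driver, the deleted exons or the number of mice per library, so p-values measure the spread between these samples. Values in sets of 4 are given in the order Brca1-WT replicate 1, Brca1-WT replicate 2, then the libraries labelled Brca1-KO, replicate 1 and replicate 2.

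Liver sinusoidal endothelial cells line the fenestrated capillaries through which portal and arterial blood flows toward the central vein, and they clear macromolecules from it through scavenger receptors such as the stabilins. Their expression changes along that path. The periportal cells face the incoming blood and are known for ephrin-B2 and the Notch ligand Dll4, whereas the pericentral cells are known for the Wnt ligands and R-spondin that maintain the metabolic zones of hepatocytes.

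The labelled target was checked first. Brca1 stood at 11.9, 11.2, 17.3 and 5.48 CPM (UMI counts scaled to a common library total) in the sum of all kept nuclei, so replicate 1 labelled Brca1-KO had the highest level of the 4 libraries. Members carried 6, 7, 4 and 0 Brca1 UMIs, too few to compare at this depth, since a count of 0 allows up to 3. The labels are therefore used as names throughout. Libraries held 36662067 to 45638888 UMIs over 5209 to 7833 barcodes.

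Depth within the gate was uneven. Members had a median of 2108, 1738.5, 1767 and 1524 UMIs, and their sums came to 928389, 848152, 581677 and 126895 UMIs. The sum of replicate 2 labelled Brca1-KO was the smallest of the 4.

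Markers of sinusoidal cells that the rule did not use were present. All 9 measured sinusoidal markers, among them the scavenger receptors Stab1 and Mrc1 (10 were listed), were detected in every library's members, and they summed to 4034, 5432, 5013 and 4539 CPM. The 10 pan-endothelial markers summed to 2862, 3249, 3022 and 3026 CPM, and Sox18 was at 0 in both libraries labelled Brca1-KO. The 12 arterial and portal vein markers summed to 287, 444, 335 and 189 CPM, with Sema3g, Ly6c1 and Efemp1 at 0 in all 4 libraries. By contrast, they summed to 3822, 7059, 5596 and 6914 CPM in the 74 nuclei of a vascular gate without Stab2. That gate asked for Vwf, which is among these 12 markers, so part of this sum was fixed by the gate.

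Markers listed for other cell types were also detected in the members. The 10 macrophage markers summed to 1031, 1068, 944 and 599 CPM, of which Mertk, a phagocytic receptor kinase, made up 991, 1039, 932 and 575 CPM. In all kept nuclei these 10 markers summed to less, 470, 428, 305 and 230 CPM. The sum in members was thus mostly Mertk, and it is not read as a trace of macrophages. The 10 stellate and fibroblast markers summed to 172, 134, 313 and 410 CPM, with Col1a1 at 0 in all 4 libraries. The 12 hepatocyte markers summed to 10152, 9273, 8403 and 7463 CPM, below the 18032, 18486, 16877 and 14880 CPM in all kept nuclei.

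Hepatocyte markers were highest in a small group of deep members. In all, 79 members (33, 23, 21 and 2) held more than 5000 UMIs, and they supplied 45.1%, 34.9%, 38.5% and 10.9% of all member UMIs. In these nuclei the hepatocyte markers reached 17262, 17690, 15026 and 16019 CPM, against 4319, 4765, 4261 and 6419 CPM in the other 815. The 5 sinusoidal genes of the rule went the other way, with 3664, 2904, 3597 and 1667 CPM in the deep members and 14056, 15779, 15911 and 9195 CPM in the others. Scrublet called 68 of the 79 doublets, and 73 of all 894 members (31, 24, 16 and 2). The tests of class and genotype were therefore run with all members and with the 821 members that were not called doublets.

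The 6 periportal genes chose the members, so their levels are a description. Ntn4, a netrin of the basement membrane, was detected in 65.8%, 72.2%, 56.0% and 46.6% of members. Efnb2, the ligand ephrin-B2, was detected in 43.8%, 44.8%, 43.1% and 43.8%. The macrophage scavenger receptor Msr1 was found in 51.1%, 36.4%, 41.8% and 39.7%, and Ltbp4, a latent TGF-beta binding protein, in 34.6%, 27.8%, 27.6% and 31.5%. The Notch ligand Dll4 followed with 15.4%, 18.8%, 21.3% and 24.7%. Adgrg6, an adhesion G protein-coupled receptor, was rare, at 4.41%, 4.63%, 3.11% and 1.37%. Ntn4 was the gene found in most members in all 4 libraries.

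Many members sat at the edge of the rule. Exactly 2 portal UMIs were present in 380 members, 3 in 199 and 4 or more in 315. A single rule gene accounted for 236 members, 2 genes for 453 and 3 or more for 205. Just outside the rule lay 779 sinusoidal nuclei with 1 portal UMI and no central UMI, and 447 nuclei with at least 2 portal UMIs were left out because they also carried a central UMI. Members with exactly 2 portal UMIs had a median of 1829, 1641, 1496 and 1352.5 UMIs, and nuclei with 1 had 1737.5, 1395, 1507 and 1426.

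Periportal nuclei were compared with the 327 pericentral nuclei (151, 85, 63 and 28) that passed the mirror gate, at least 2 UMIs of the 5 central genes and none of the 6 portal genes. The 21 genes of the gates were left out. Pericentral nuclei had a median of 2128, 1855, 1807 and 1707 UMIs. Those over 5000 UMIs supplied 52.4%, 20.4%, 28.3% and 63.9% of the pericentral UMIs, and the hepatocyte markers summed to 12035, 7391, 8919 and 13380 CPM. In Brca1-WT replicate 1 and in replicate 2 labelled Brca1-KO both values were thus above those of their periportal nuclei. In replicate 1 labelled Brca1-KO the hepatocyte sum alone was. With all nuclei, 7 genes rose and 6 fell in periportal nuclei at an adjusted p below 0.05 in edgeR's quasi-likelihood test on summed counts with library as a block. These 13 calls were 0.214% of the 6061 genes tested (0.115% higher and 0.099% lower). Every one of the 13 genes lay on 1 side in all 4 libraries, as did 6.78% of the genes tested on the higher side and 5.23% on the lower side.

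The 7 genes that rose in periportal nuclei were Hmcn1, Lama4, Ldb2, Galnt15, Tox2, Mecom and Nrg1. Hmcn1, which encodes the matrix protein hemicentin 1, stood at 378, 433, 465 and 330 CPM after TMM normalisation in periportal nuclei and at 117, 135, 120 and 52.0 in pericentral nuclei, a log2 difference of 1.86 (SE 0.214, adjusted p = 0.00102). Its lowest periportal library was above its highest pericentral library. Lama4, the laminin alpha 4 chain of endothelial basement membrane, stood at 297, 401, 361 and 504 CPM against 106, 271, 152 and 125 (log2 difference 1.25, SE 0.231, adjusted p = 0.0452). Ldb2, a nuclear adaptor that binds LIM-domain proteins, stood at 1597, 1997, 1865 and 2080 CPM against 460, 1287, 722 and 541 (1.42, SE 0.258, adjusted p = 0.0452). Neither gene's classes overlapped across libraries. Galnt15, a glycosyltransferase that starts O-linked glycans, stood at 154, 170, 184 and 174 CPM against 27.9, 107, 50.7 and 10.4 (1.82, SE 0.336, adjusted p = 0.0452). Tox2, an HMG-box protein, had 49.2, 60.9, 93.0 and 64.1 CPM against 5.59, 16.9, 31.7 and 0 (2.33, SE 0.423, adjusted p = 0.0452). Both genes also kept all periportal libraries above all pericentral ones.

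Mecom and Nrg1 had the largest log2 differences of the 13. Mecom, a zinc finger transcription factor, stood at 166, 320, 216 and 82.5 CPM in periportal and 20.5, 33.9, 19.0 and 52.0 CPM in pericentral nuclei (2.85, SE 0.334, adjusted p = 0.00102). Nrg1, a ligand of ErbB receptors, stood at 45.7, 72.3, 33.5 and 45.8 CPM against 3.72, 0, 6.33 and 10.4 (3.46, SE 0.545, adjusted p = 0.0137). Pericentral nuclei without called doublets held 2, 0, 1 and 1 Nrg1 UMIs, near the floor, so the size of its difference is uncertain. In replicate 2 labelled Brca1-KO the classes were closest for Mecom. Both genes are taken up again below, because a few members carried much of their signal.

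The 6 genes that fell in periportal nuclei included an adhesion molecule and a signalling enzyme. Cdh13, the GPI-anchored T-cadherin, stood at 301, 97.7, 156 and 330 CPM in periportal and 765, 694, 564 and 780 CPM in pericentral nuclei (log2 difference -1.82, SE 0.256, adjusted p = 0.00581). Pde4b, which degrades cyclic AMP, stood at 65.2, 91.3, 112 and 128 CPM against 160, 514, 317 and 198 (-1.62, SE 0.257, adjusted p = 0.0137). All 4 periportal values of both genes lay below all 4 pericentral values. Sntg1, a syntrophin, stood at 98.3, 97.7, 100.4 and 27.5 CPM against 309, 666, 684 and 114 (-2.36, SE 0.241, adjusted p = 0.000534). Plppr5, of the phospholipid phosphatase-related family, had 22.9, 17.8, 22.3 and 27.5 CPM against 119, 130, 184 and 93.6 (-2.63, SE 0.275, adjusted p = 0.000534). Neither overlapped between the classes. Ifitm10 (-2.15, SE 0.297, adjusted p = 0.00561) and the protocadherin Pcdh9 (-2.09, SE 0.312, adjusted p = 0.00904) completed the 6.

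**Figure D1:**
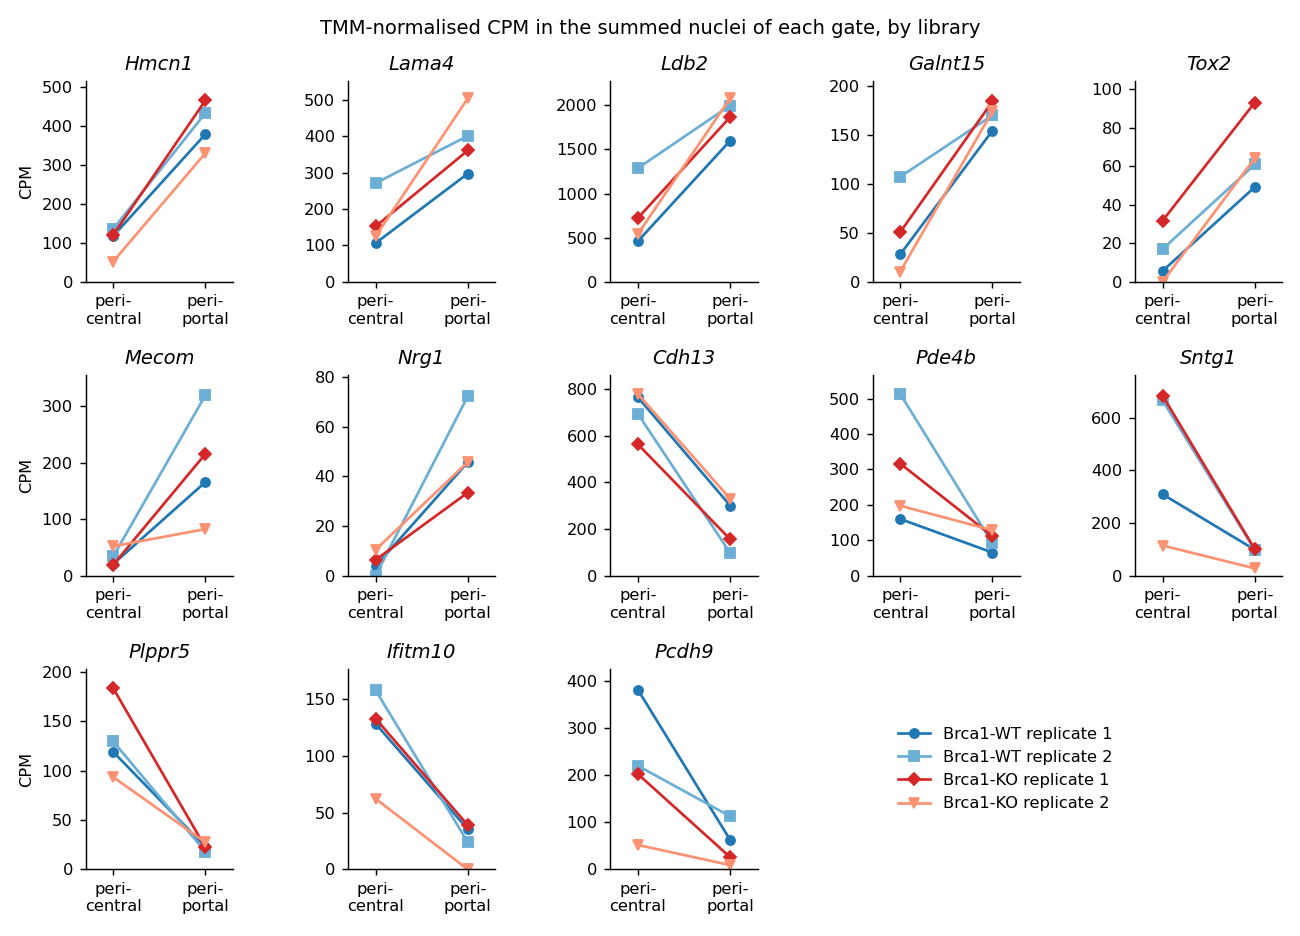
TMM-normalised CPM (y axis, linear from 0) of the 13 genes that passed the class comparison, in the summed pericentral and periportal nuclei of each library; each line joins the 2 classes of 1 library. All 4 lines rise toward the periportal class for 7 genes and fall for 6, and the Mecom line of replicate 2 labelled Brca1-KO is the flattest of its panel, from 52.0 to 82.5.

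Without called doublets 117 of 4016 genes passed (2.91%), 62 higher (1.54%) and 55 lower (1.37%) in periportal nuclei, including 11 of the 13. Pcdh9 did not pass there (log2 difference -2.22, adjusted p = 0.19, with a range of 2.23e-15 to 1.0 over 15 alternatives), and Nrg1 was not among the genes tested. The calls also numbered 132 without nuclei over 5000 UMIs, a limit chosen after the data were seen. The following levels and tests are from the fit without called doublets. There replicate 2 labelled Brca1-KO held 71 periportal nuclei with 113099 UMIs and 23 pericentral nuclei with 39052 UMIs. Its low CPM values therefore rest on few UMIs.

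Single genes of several functions rose. Insr, the insulin receptor, stood at 2612, 2321, 2377 and 1726 CPM in periportal and 1422, 1122, 1147 and 887 CPM in pericentral nuclei (log2 difference 0.98, SE 0.0903, adjusted p = 7.08e-16). Cd36, a receptor for fatty acid uptake, stood at 502, 663, 935 and 381 CPM against 284, 319, 455 and 184 (0.97, SE 0.146, adjusted p = 2.63e-07). Each library had the higher value in its periportal nuclei, although the periportal Cd36 level of replicate 2 labelled Brca1-KO was below the pericentral level of replicate 1 with the same label. Abcc9, a subunit of ATP-sensitive potassium channels, stood at 448, 508, 677 and 101 CPM against 171, 197, 393 and 0 (1.20, SE 0.176, adjusted p = 1.18e-07). Cd36 was 1 of 10 tested genes of lipid uptake and handling, and no other gene of that list passed.

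Of 18 tested BMP, TGF-beta and SMAD genes 3 rose and none fell, with a list median of 0.03 against 0.00 over all genes. Bmper, a secreted BMP-binding protein, stood at 128, 196, 115 and 123 CPM in periportal and 43.8, 68.3, 72.3 and 61.2 in pericentral nuclei (log2 difference 1.3, SE 0.291, adjusted p = 0.00147). Bmpr2, the type II BMP receptor, stood at 1288, 1259, 1533 and 751 CPM against 862, 925, 971 and 673 (0.53, SE 0.105, adjusted p = 0.000214). Bmper did not overlap between classes, and Bmpr2 was higher within each library. Smad6, an inhibitory SMAD, passed (0.56, adjusted p = 0.0166) but was lower in the periportal nuclei of replicate 2 labelled Brca1-KO, at 291 CPM against 490. Plxnd1, a semaphorin receptor, rose (0.69, SE 0.164, adjusted p = 0.00344) and Plxnc1 fell (-0.45, SE 0.0953, adjusted p = 0.000685) among 12 tested guidance genes, whose median was -0.03.

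Further genes that rose were the receptor-type phosphatase Ptpre (log2 difference 1.34, adjusted p = 0.000366), the polo-like kinase Plk2 (1.34, adjusted p = 0.0192), the oncostatin M receptor Osmr (0.88, adjusted p = 0.000283) and the hypoxia-inducible factor Epas1 (0.46, adjusted p = 0.0174). All 4 were higher in the periportal nuclei of every library, as were 9.59% of all genes tested. Plk2 was the single gene to pass among 7 tested p53 targets. All 7 had a positive difference, with a median of 0.21.

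Among the genes that fell, 2 enzymes of prostanoid synthesis stood out by function, chosen after their values were seen. Ptgs1, cyclooxygenase 1, stood at 119, 92.7, 106 and 56.0 CPM in periportal and 289, 190, 217 and 214 CPM in pericentral nuclei (log2 difference -1.19, SE 0.218, adjusted p = 3.95e-05). Tbxas1, thromboxane synthase, had 32.5, 56.9, 39.5 and 11.2 CPM against 109, 83.4, 62.0 and 122 (-1.19, SE 0.344, adjusted p = 0.0309). No periportal value of either gene reached a pericentral one. For Tbxas1 both values of replicate 2 labelled Brca1-KO rest on few UMIs, and the closest values of the classes were 56.9 and 62.0 CPM. Car8, a carbonic anhydrase-related protein, stood at 584, 432, 416 and 314 CPM against 1313, 1175, 1147 and 337 (-1.27, SE 0.121, adjusted p = 3.48e-15). In replicate 2 labelled Brca1-KO the Car8 values of the classes lay close together. The collagen prolyl hydroxylase P3h2 fell by 1.24 on the log2 scale (SE 0.187, adjusted p = 2.63e-07) without overlap between the classes.

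Endothelial genes listed for either side of the lobule, outside the rule, were counted next. These lists were chosen with earlier results of these data known, so their counts are a description. Of 20 listed portal-side genes 7 could be tested without doublets, and 4 rose, Adam23, Mecom, Meis1 and Meis2, with none falling and a list median of 0.29. In every library 3 of the 7 were higher. Mecom was not among them. Without TMM normalisation, replicate 2 labelled Brca1-KO had Mecom at 79.6 CPM (9 UMIs) in periportal and 128 CPM (5 UMIs) in pericentral nuclei. Of 14 listed central-side genes 5 could be tested, and 3 fell, Cdh13, Ptgs1 and Plpp1. All 5 central-side genes were lower in periportal nuclei in every library (8.57% of all genes tested were), with a list median of -0.63. With all nuclei, 1 of 8 portal-side genes (Mecom) and 1 of 5 central-side genes (Cdh13) passed.

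Adam23, a catalytically inactive disintegrin that binds integrins, stood at 4505, 5059, 4478 and 2118 CPM in periportal and 2923, 2283, 2593 and 857 CPM in pericentral nuclei (log2 difference 0.88, SE 0.0801, adjusted p = 3.34e-16). Replicate 2 labelled Brca1-KO was low in both classes, and the other 3 libraries did not overlap. The homeobox factor Meis1 stood at 560, 484, 613 and 504 CPM against 346, 311, 403 and 337 (0.65, SE 0.148, adjusted p = 0.00203), with no overlap. Its relative Meis2 differed less (0.29, SE 0.0796, adjusted p = 0.0213). Nrp1, a co-receptor of VEGF and semaphorins (0.04, adjusted p = 0.975), and Sox17, an arterial transcription factor (-0.26, adjusted p = 0.927), did not pass. The central-side Plpp1, a lipid phosphate phosphatase, stood at 2640, 2403, 2444 and 1210 CPM against 4043, 2920, 4008 and 2938 (-0.63, SE 0.0817, adjusted p = 2.73e-09). Emcn (-0.52, adjusted p = 0.115) and Dkk3 (-0.49, adjusted p = 0.454) did not pass.

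Most sinusoidal identity genes did not pass between the zones. Of 15 tested scavenger and identity genes, Ctsl, the lysosomal protease cathepsin L, rose (log2 difference 0.79, SE 0.237, adjusted p = 0.0444). The scavenger receptor Stab1 fell (-0.36, SE 0.0963, adjusted p = 0.0136), and the list median was 0.04. The mannose receptor Mrc1 stood at 1720.4, 2342, 2577 and 1457 CPM in periportal and 1833, 2404, 2655 and 1040.4 in pericentral nuclei (-0.01, SE 0.0842, adjusted p = 0.998). None of 9 tested Notch pathway genes and none of 16 VEGF, angiopoietin and junction genes passed, among them Notch1 (0.28, SE 0.212) and Kdr, the main VEGF receptor (0.01, SE 0.121). Of 10 tested Wnt genes the co-receptor Lrp5 fell (-0.67, SE 0.169, adjusted p = 0.00813). Lama4 was the 1 of 12 basement membrane genes to pass. None of the 12 hepatocyte markers passed, and their median was -0.03.

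Levels were then followed through sinusoidal nuclei that neither class used, again without doublets and here in plain CPM. Of 1442 nuclei with no zonal UMI, 287, 418, 387 and 216 were not called doublets. Of 779 with 1 portal UMI, 169, 243, 190 and 98 were not. Hmcn1 stood at 210, 142, 166 and 51.2 CPM in pericentral nuclei, 175, 269, 362 and 206 with no zonal UMI, 318, 363, 454 and 286 with 1 portal UMI, 431, 461, 527 and 274 with 2 or 3, and 659, 720, 785 and 378 with 4 or more. From no zonal UMI to 1 portal UMI the level of Hmcn1 was higher in all 4 libraries. Adam23 went from 2296, 2167, 2767 and 1053 CPM with no zonal UMI to 3164, 3448, 3445 and 1373 with 1 portal UMI and to 4052, 4720, 4000 and 2064 with 4 or more. Ldb2 went from 1020, 1119, 1463 and 1018 CPM to 1650, 1590, 1793 and 1197 and to 2660, 3089, 3029 and 1926 over the same classes. Over these classes both genes therefore stood in the same order in each library. Pericentral nuclei had Adam23 at 2545, 1948, 2198 and 717 CPM and Ldb2 at 819, 1379, 937 and 1075. They were thus not below the nuclei with no zonal UMI in every library.

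Cdh13 and Pde4b, 2 of the genes that fell, were followed in the same way. Cdh13 stood at 1288, 744, 744 and 1613 CPM in pericentral nuclei and already at 467, 236, 388 and 626 CPM with no zonal UMI. With 1 portal UMI it stood at 429, 184, 188 and 388 CPM. Pde4b stood at 251, 576, 429 and 410 CPM in pericentral nuclei, 134, 113, 141 and 92.5 with no zonal UMI, and 74.0, 116, 138 and 61.2 with 1 portal UMI. For Pde4b the largest step in each library was between the pericentral nuclei and those with no zonal UMI.

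The called genes were then counted. From no zonal UMI to 1 portal UMI, 32 of the 62 periportal-high genes (51.6%) were higher in all 4 libraries, against 12.4% of all 4016 genes, and their median log2 ratio was 0.27 against 0.03. Of the 55 periportal-low genes, 6 (10.9%) were lower in all 4 libraries, near the 11.8% of all genes, and their median was 0.06. Among members themselves, from 2 or 3 to at least 4 portal UMIs, 19 of the 62 (30.6%, against 6.13% of all genes) were higher and 11 of the 55 (20%, against 8.94%) lower in all 4 libraries. These steps are within the libraries that gave the calls, portal UMIs are part of the rule, and no test was made. With doublets kept, median depth was 1682, 1166, 1357 and 1183.5 UMIs with no zonal UMI, below the depth with 1 portal UMI given above.

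**Figure D2:**
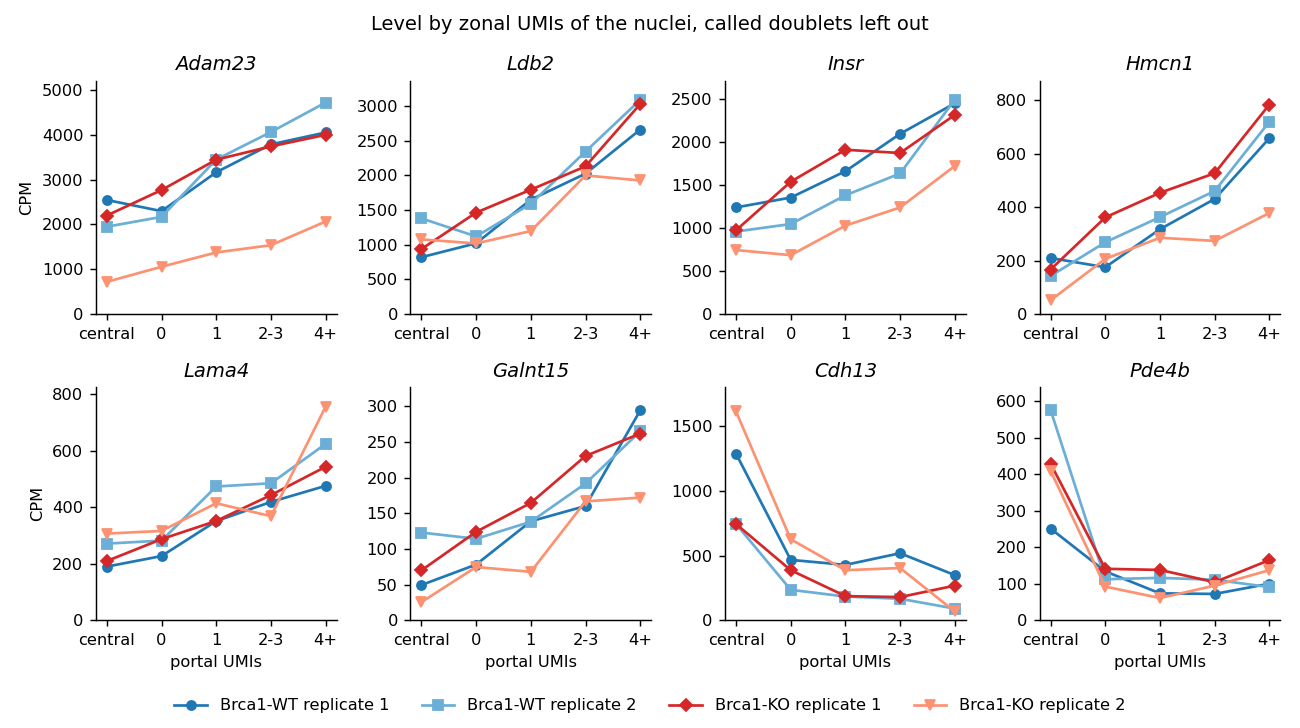
CPM (y axis, linear from 0) of 8 genes in nuclei without called doublets, by class along the x axis: pericentral gate, then 0, 1, 2 or 3, and 4 or more portal UMIs with no central UMI; each line is 1 library. Adam23, Ldb2, Insr, Hmcn1, Lama4 and Galnt15 are higher at 4 or more portal UMIs than in the pericentral gate in all 4 libraries, whereas Pde4b drops from 251, 576, 429 and 410 in the pericentral gate to 134, 113, 141 and 92.5 at 0 portal UMIs and stays near that level.

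Members differed among themselves by which rule gene they carried. The 33 members without doublet calls that had an Adgrg6 UMI (11, 14, 7 and 1) were unlike the rest. Mecom stood there at 1380.4, 3806, 4447 and 0 CPM, whereas the 788 members with no Adgrg6 UMI had 184, 258, 140 and 80.3. These few nuclei held 42 of 134, 105 of 241, 54 of 106 and 0 of 9 of the members' Mecom UMIs. Nrg1 stood at 657, 1414, 741 and 0 CPM against 32.0, 32.3, 24.2 and 44.6, with 20 of 36, 39 of 56, 9 of 18 and 0 of 5 UMIs. The arterial and portal vein markers, Mecom among them, summed to 1939, 5038, 5929.8 and 0 CPM against 364, 426, 296 and 214. In the 3 libraries with more than 1 such nucleus, all of these values were higher with Adgrg6. Adgrg6 is itself part of the rule, and the split was chosen after the data were seen, so the values are a description.

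The Adgrg6-positive members shared these genes with the 71 vascular nuclei without doublet calls, where Mecom stood at 3424, 5499.7, 3640.5 and 5877 CPM and Nrg1 at 807, 1786, 1181 and 5334. They differed from them in Adam23, at 2432, 3407, 2141 and 0 CPM in Adgrg6-positive members against 48.9, 31.3, 38.7 and 0 in vascular nuclei. In all 821 members Adam23 stood at 3921, 4336, 3839 and 1671 CPM. With all Adgrg6-positive members removed from the full comparison with pericentral nuclei, 11 genes passed, 10 of them shared with the 13. Mecom still rose (log2 difference 2.29, SE 0.316, adjusted p = 0.00633, with a range of 5.36e-24 to 0.373 over 15 alternatives), and Nrg1 was no longer among the genes tested.

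Levels were also compared between members with and without an Msr1 UMI. Mecom stood at 325, 640, 245 and 120 CPM with Msr1 and at 155, 315, 302 and 47.7 without. Nrg1 stood at 65.7, 210, 74.1 and 79.7 CPM with Msr1 and at 70.6, 37.2, 24.0 and 15.9 without. For both, the values of replicate 2 labelled Brca1-KO rest on few UMIs. Adam23 stood at 4341, 5029.7, 4142 and 1374 CPM in the 353 members with an Msr1 UMI and at 3355, 3930.1, 3584 and 1908 in the 468 without. Ldb2 stood at 2604, 3016, 2444 and 2111 CPM with Msr1 and 1999.8, 2442, 2492 and 1876 without. The order differed between libraries for each of these genes. The 212 members that rested on a single rule gene had Adam23 at 3615, 3679.9, 3698 and 1347 CPM and Ldb2 at 2167, 2049, 2016 and 1377. These levels were above the pericentral ones in every library, 2545, 1948, 2198 and 717 CPM for Adam23 and 819, 1379, 937 and 1075 CPM for Ldb2.

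**Figure D3:**
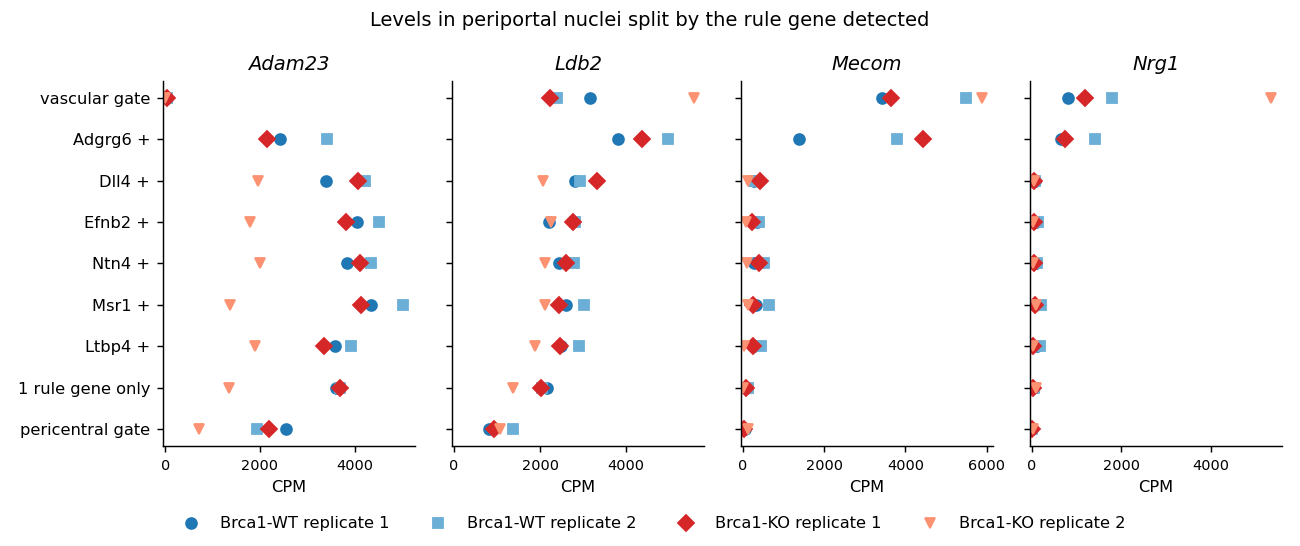
CPM (x axis, linear) of 4 genes in members without called doublets, grouped by the rule gene detected (a nucleus can be in several rows), with the pericentral and vascular gates at the bottom and top; each symbol is 1 library, and groups of fewer than 5 nuclei in a library are not drawn. Adam23 is near 0 in the vascular gate alone, and Mecom and Nrg1 are high in the vascular gate and in the Adgrg6-positive members.

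The share of sinusoidal nuclei that were periportal was 18.1% (exact Clopper-Pearson 95% interval 16.2 to 20.2), 20.8% (18.8 to 22.9), 18.9% (16.7 to 21.3) and 13.3% (10.6 to 16.5). Replicate 2 labelled Brca1-KO was lowest, and replicate 1 lay between the Brca1-WT libraries. The means were 19.5% ± 1.90 (SD, n = 2) in Brca1-WT and 16.1% ± 3.97 (SD, n = 2) in the libraries labelled Brca1-KO, a difference of -3.35 percentage points (2-sided exact permutation test, p = 0.667). Without called doublets the difference was -3.59 points. With 2 libraries against 2 this test cannot go below 0.33. The intervals cover counting error only.

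Related shares placed this in the whole library. Members made up 4.13%, 4.31%, 4.46% and 1.13% of kept nuclei, and sinusoidal nuclei 22.8%, 20.7%, 23.5% and 8.49%, so the low value of replicate 2 labelled Brca1-KO was shared by the whole sinusoidal gate. Pericentral nuclei made up 10.1%, 5.46%, 5.30% and 5.11% of sinusoidal nuclei (difference -2.56 points, exact permutation p = 0.333). Sinusoidal nuclei with no zonal UMI made up 21.6%, 30.3%, 35.4% and 41.2%, and the groups did not overlap (12.3 points, exact permutation p = 0.333, the smallest the design allows).

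That share was also taken at equal depth. After each sinusoidal nucleus was thinned to 1000 UMIs, the share with no zonal UMI was 44.4%, 43.0%, 50.5% and 49.7%. The groups again did not overlap, and the difference was 6.44 points (exact permutation p = 0.333). The periportal share was then 11.1%, 14.6%, 11.2% and 8.72% (-2.93 points, exact permutation p = 0.667). At a rule of at least 3 portal UMIs it was 11.7%, 12.1%, 9.76% and 6.02% (-4.05 points, exact permutation p = 0.333). Both libraries labelled Brca1-KO were then below both Brca1-WT libraries.

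**Figure D4:**
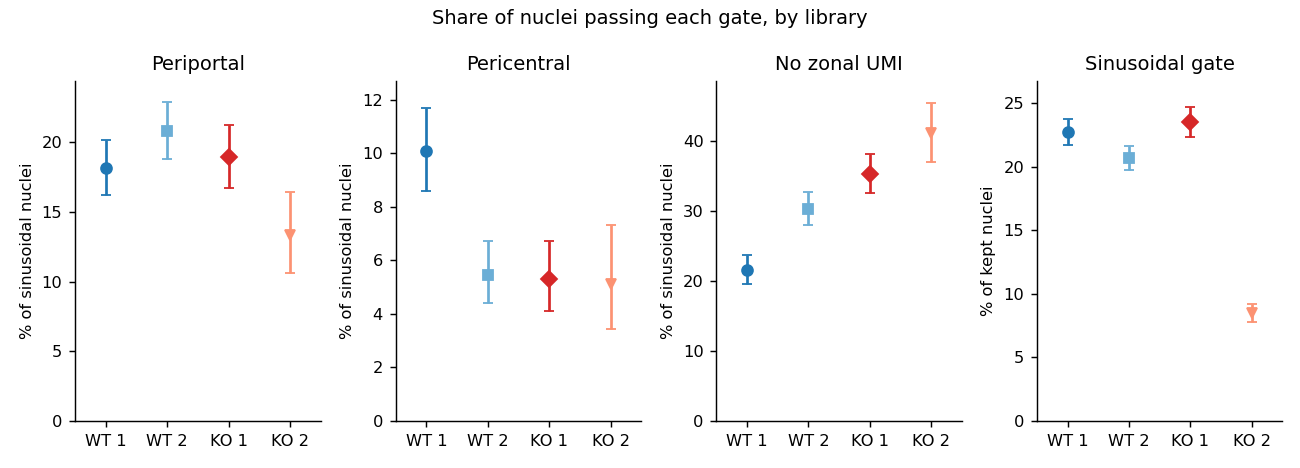
Share of nuclei in each library (y axes, percent from 0) that passed the periportal, pericentral or no-zonal-UMI gate among sinusoidal nuclei, and the sinusoidal gate among kept nuclei; points are single libraries and bars are exact 95% intervals. Periportal shares of 18.1%, 20.8% and 18.9% have overlapping intervals, and replicate 2 labelled Brca1-KO lies lower at 13.3%, with an interval that reaches 16.5 and overlaps that of Brca1-WT replicate 1 from 16.2.

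Genotype was compared within the periportal nuclei on the summed counts of the 4 libraries. One gene, Slc15a2, passed edgeR's quasi-likelihood test, 0.012% of the 8366 genes tested. Slc15a2, which encodes the peptide transporter PEPT2, stood at 16.2, 33.6, 162 and 128 CPM (15, 28, 92 and 15 UMIs), a log2 difference of 2.61 between the libraries labelled Brca1-KO and Brca1-WT (SE 0.36, adjusted p = 0.0468). Both libraries labelled Brca1-KO lay above both Brca1-WT libraries. The call was lost without called doublets, where the level was 25.0, 53.04, 233 and 138 CPM (2.33, SE 0.392, adjusted p = 0.217). Over its 14 alternatives the adjusted p of Slc15a2 ran from 2.89e-11 to 0.789. No gene passed without doublets in edgeR, where 241 of 6578 genes had an unadjusted p below 0.05. With all members 2 genes passed in DESeq2, Slc15a2 and Bhmt (described below). In edgeR 307 of the 8366 genes then had an unadjusted p below 0.05, 140 higher and 167 lower. Both counts are less than a share of 0.05 of the genes tested.

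Slc15a2 was also higher in other classes of the libraries labelled Brca1-KO. In plain CPM it stood at 15.3, 47.85, 148 and 56.9 in sinusoidal nuclei with no zonal UMI, at 41.9, 64.7, 201 and 76.8 in pericentral nuclei without doublets, and at 10.7, 11.0, 32.9 and 28.0 in all kept nuclei. The genotype groups did not overlap in any of these sums, and among members they did not overlap for 32.8% of the genes tested. The pericentral sum of replicate 2 labelled Brca1-KO held 39052 UMIs in 23 nuclei, so its 76.8 CPM rests on few UMIs. The difference between classes in its genotype effect was tested and did not pass (interaction 1.01 on the log2 scale, SE 0.611, adjusted p = 0.999).

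No other gene passed in edgeR with all members, so the genes with the smallest p that met the naming rule are given as values. Hgf, the hepatocyte growth factor, stood at 131, 81.5, 239 and 324 CPM (log2 difference 1.34, SE 0.286, adjusted p = 0.796). Over 14 alternatives its adjusted p ran from 0.000167 to 0.9999, and 6 passed. Without called doublets the log2 difference was 1.08. Both libraries labelled Brca1-KO were above both Brca1-WT libraries, whereas all kept nuclei had 83.9, 71.8, 64.7 and 85.1 CPM. Hgf is also a stellate cell marker, and another such marker, the proteoglycan Dcn, stood at 7.57, 7.19, 33.5 and 59.6 CPM in members (7, 6, 19 and 7 UMIs; 2.38, SE 0.521, adjusted p = 0.796). Of the 10 stellate markers 4 were tested, and 3 of them were higher in both libraries labelled Brca1-KO, as were 15.8% of all genes tested. Without called doublets 2 of 3 were. The part of stellate cell RNA in the Hgf values was not tested.

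Csnk1e, casein kinase 1 epsilon, stood at 35.7, 28.8, 77.5 and 85.1 CPM (log2 difference 1.29, SE 0.334), and the orphan nuclear receptor Esrrb at 35.7, 69.5, 116 and 136 CPM (1.22, SE 0.35). Flrt1 completed the 5 higher genes at 21.6, 26.4, 68.7 and 34.1 CPM (1.31, SE 0.396). On the lower side stood Iigp1, an interferon-inducible GTPase, at 140, 92.3, 49.3 and 42.6 CPM (-1.28, SE 0.347) and Eif2ak2, the double-stranded RNA kinase PKR, at 73.6, 69.5, 33.5 and 34.1 CPM (-1.09, SE 0.351). Nxpe4 (121, 105, 58.1 and 51.1 CPM), Ctnnal1 (34.6, 50.3, 15.8 and 8.51) and Commd10 (131, 87.5, 59.9 and 25.5) were the other 3. The rule asked for groups that do not overlap, and the adjusted p was 0.9998 for all 8.

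**Figure D5:**
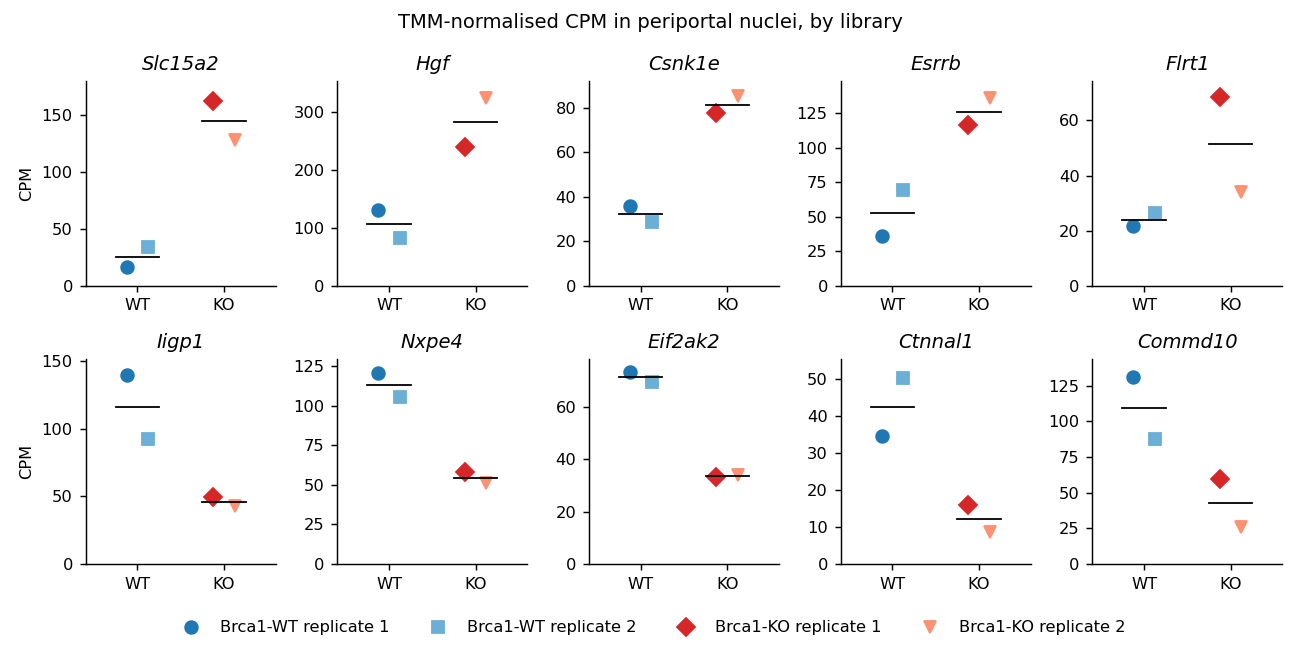
TMM-normalised CPM (y axis, linear from 0) in periportal nuclei for the 10 genes named by p in the genotype comparison, 5 higher and 5 lower in the libraries labelled Brca1-KO; points are libraries and horizontal lines are means of 2. Slc15a2 is the gene that passed, at 16.2 and 33.6 in Brca1-WT against 162 and 128.

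Lists are given by their counts beside the background, in which both libraries labelled Brca1-KO lay on 1 side of both Brca1-WT libraries for 32.8% of the genes tested (15.8% higher and 17% lower). Of 14 tested interferon response genes 7 were lower in this sense and 1 higher, with a median log2 difference of -0.43 against -0.00 over all genes, and none passed. Ifi44 stood at 20.6, 16.8, 10.6 and 0 CPM and Xaf1 at 17.3, 16.8, 10.6 and 0. Both are near the floor, since a count of 0 allows up to 3 among the 126895 UMIs of replicate 2 labelled Brca1-KO. Without called doublets 7 of 13 were lower and none higher, with a median of -0.69, against 33.7% of all genes on 1 side (16.2% higher and 17.5% lower). The list was not compared with the rest of the genome by a test.

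Of 11 tested genes of MHC and antigen presentation 5 were lower and 1 higher (median -0.31), and without called doublets 5 of 10 and 1 (median -0.33). The class I genes H2-Q4 (67.1, 75.5, 42.3 and 25.5 CPM) and H2-Q7 (55.2, 52.7, 31.7 and 0 CPM) were among those with lower values, with adjusted p of 0.9998 for both. These genes have near-identical relatives, so their counts are uncertain. The classical class I gene H2-K1 stood at 326, 207, 153 and 230 CPM and overlapped between the groups.

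Immediate early and heat shock genes had 8 of 14 higher and none lower, with a median of 0.56. The chaperone Hsp90aa1 stood at 19.5, 25.2, 47.5 and 76.6 CPM (log2 difference 1.3, SE 0.413, adjusted p = 0.9998) and its relative Hsp90ab1 at 79.0, 71.9, 114 and 119 CPM (0.62, SE 0.283). Without called doublets 9 genes could be tested, 4 were higher, and the median was 0.24. Hsp90aa1 then differed by 0.72 (SE 0.546). Hsp90ab1 then stood at 63.6, 68.2, 60.3 and 118 CPM, so its groups overlapped.

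Basement membrane genes had 5 of 14 higher and none lower (median 0.25). Perlecan, encoded by Hspg2, stood at 109, 127, 150 and 272 CPM (log2 difference 0.70, SE 0.3) and Col4a1, a type IV collagen chain, at 125, 80.3, 143 and 196 CPM (0.63, SE 0.304). In both, replicate 2 labelled Brca1-KO was the highest library. Without called doublets 6 of 14 were higher and the median was 0.12. The portal-side list had 1 of 11 higher and 1 lower (median 0.01), the scavenger list 1 and 2 of 16 (median 0.10), and the Notch list 2 and 0 of 15 (median 0.21). Without called doublets these medians were -0.05, -0.08 and 0.04, so the first pair turned negative. No proliferation gene of 26 was abundant enough to test.

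Bhmt, the gene of the series' title and an abundant hepatocyte transcript, stood at 1014, 685, 305 and 153 CPM in members (log2 difference -1.78, SE 0.313, adjusted p = 0.22). Bhmt passed in 7 of 14 alternatives, among them DESeq2 (-1.82, SE 0.414, adjusted p = 0.0454) and each fit of all members without 1 library, and its adjusted p ran from 1.83e-09 to 0.999. The groups did not overlap, with lower values under the Brca1-KO label, and the same order held in all kept nuclei, at 1624, 1082, 654 and 257 CPM. Without called doublets the members' levels were 264, 237, 126 and 128 CPM (-0.98, SE 0.274, adjusted p = 0.999). The hepatocyte markers of the members were listed above, and of 12 tested 5 were lower and 1 higher with all members (median -0.26), against 0 lower and 2 higher without doublets (median 0.25). The part of hepatocyte RNA in the Bhmt values of members was not tested.

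The following genes that rose in the periportal class did not pass between genotypes. Hmcn1 differed by 0.01 (SE 0.243), Ldb2 by 0.12 (SE 0.244) and Adam23 by -0.31 (SE 0.288) on the log2 scale, each with adjusted p = 0.9998. Mecom differed by -0.50 (SE 0.445, adjusted p = 0.9998) and passed in 1 of 14 alternatives, without Brca1-KO replicate 1 (-1.58, SE 0.425, adjusted p = 0.0202). Whether any gene's genotype difference differed between periportal and pericentral nuclei was tested as an interaction, and 0 of 7095 genes passed in edgeR (133 at an unadjusted p below 0.05) or in DESeq2 (25 unadjusted). For Hgf the interaction was 0.85 and for Iigp1 -1.0 on the log2 scale, both with adjusted p = 0.999. A p that misses the threshold does not show that the classes responded alike.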

How the data were processed

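The deposited values were unnormalized UMI counts per gene and barcode from the authors' Cell Ranger run (version 6.0.0, per the file headers); the submitters' processing notes name GRCh38, a human build, while the 32285 identifiers are mouse genes, so no coordinates are given. No source used here states the treatment of introns or of strand in counting. Members, gate and gene lists were chosen with earlier results of these data known. Scrublet, run on each library through scanpy 1.11.5, called doublets (expected rate 0.06, thresholds 0.142, 0.168, 0.210 and 0.274); members were first analysed with them. Counts were summed per library and class and tested with edgeR 4.0.16 in R 4.3.3 (TMM, filterByExpr, robust glmQLFit, glmQLFTest; Benjamini-Hochberg over all genes tested, threshold 0.05). CPM in the fits were TMM-normalised, and CPM of splits, steps and marker sums were not. Shares were compared by exact permutation with scipy 1.17.1, and the scripts were tested on simulated data. Alternatives were DESeq2 1.42.0, RLE size factors, no filter, no doublets, at least 3 portal UMIs, thinning to 1000 UMIs, block changes, a wider pericentral gate and leaving out each library; those on nuclei over 5000 UMIs, on Adgrg6 and on doublets with a library left out were chosen after seeing the data.

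Genes named were the gate genes, Bhmt and Brca1, for genotype at most 8 passing genes in each direction by p (otherwise the 5 with the smallest unadjusted p), up to 12 each way by size for the class comparison, and up to 4 per list. The genotype and class rules asked for an average log2 CPM of at least 5, libraries on 1 side, a level at least that in all kept nuclei, and no unnamed models. Other names were chosen after their values were seen.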

Additional observations from a re-analysis of the deposited data

How the results depend on the processing

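Counts of calls moved more than single genes did. For genotype in periportal nuclei the 1 call became 2 with DESeq2, 22 without a filter, 0 without called doublets, 0 after thinning, 0 without nuclei over 5000 UMIs, 0 without Adgrg6-detected nuclei, 20 without called doublets and without Brca1-KO replicate 2 together, and 16 to 139 with a library left out (139 without Brca1-KO replicate 1, 35 without replicate 2). A replicate block gave 20 calls. The labels state no pairing by replicate number, so the block is not used. With 2 libraries per group the correlation of deviations (-0.0823) cannot decide whether the numbers pair the samples. For periportal against pericentral nuclei the 13 calls became 56 without a filter, 117 without called doublets, 60 after thinning, 132 without nuclei over 5000 UMIs, 4 without the library block, 36 with the wider pericentral gate, 123 without doublets and without Brca1-KO replicate 2 (12 shared with the 13), and 1 to 42 with a library left out (1 without Brca1-WT replicate 1, 5 without Brca1-KO replicate 1). It was 13 with DESeq2 and with RLE size factors, 9 with at least 3 portal UMIs and 11 without Adgrg6-detected nuclei. The interaction gave 0 to 5 calls with a library left out (4 without Brca1-KO replicate 1, 5 without replicate 2) and 1 without doublets and without Brca1-KO replicate 2. The share difference stayed negative, from -6.16 to -0.539 points with a library left out (-0.539 without Brca1-KO replicate 2). Of the single-gene values, 2 turned in direction, Hsp90ab1 to -0.13 without doublets and without Brca1-KO replicate 2 (-0.13 to 0.69 over the fits that leave out a library) and Sparc to -0.047 after thinning; 41 lost and 119 gained a call and 773 did neither. Where a library was left alone in its group it was assumed to vary like the other group. The causes were not tested. Replicate 2 labelled Brca1-KO was the shallowest, with 73 nuclei and 126895 UMIs.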
